A study of Mus musculus with 4 samples.

Results

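The insulin-like growth factor (IGF) family studied here comprised 10 mouse genes: the ligands Igf1 and Igf2, the receptors Igf1r and Igf2r, and the binding proteins Igfbp2, Igfbp3, Igfbp4, Igfbp5, Igfbp6 and Igfbp7. Members were chosen by gene name, and every row of the deposited peak tables that names such a gene was taken, at any distance. In the list of glucocorticoid receptor (GR) peaks from PDGFRa+ cells, 14 of 10402 peaks named a member, and 8 of the 10 genes had at least 1 peak, beside 22.5% of protein-coding genes. These counts were not adjusted for gene length or for the distance to neighbouring genes. The family was also chosen with earlier results of these data known. In the table of CD137+ cells, none of the 30 rows named a member. Both tables come from GR chromatin immunoprecipitation and sequencing of differentiated adipose progenitors of C57BL/6 mice that were all treated with dexamethasone, a synthetic glucocorticoid, at 1 µM. There were 4 libraries, 1 immunoprecipitate and 1 input for CD137+ cells and likewise for PDGFRa+ (CD140+) cells. Cells were magnetically sorted from tissue abbreviated SAT or VAT, the labels not saying which gave which population, and were differentiated with an adipogenic cocktail. No group had a replicate or an untreated control, so no value below has a replicate error and no difference between cell types was tested. Binding data give no expression, so the labelled cell identity was not checked by markers, and read depth is not given in the sources used here.

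Igf1 and Igf2 act through Igf1r, a receptor tyrosine kinase, and promote growth, survival and, in fat cell precursors, differentiation. Igf2r, the cation-independent mannose-6-phosphate receptor, takes up Igf2 and delivers it for degradation. Binding proteins hold the ligands in the circulation and the matrix and limit or prolong their access to the receptor. GR is a nuclear receptor that on binding a glucocorticoid attaches to DNA, often as a dimer on inverted copies of a short hexamer, and commonly far from promoters.

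The sequence under the peaks was not analysed here, since the PDGFRa+ list is on a build other than the reference tables, so the promoter windows of the members serve as sequence context. RefSeq windows on GRCm38.p6 were found for all 10 members, 14 windows in all since Igf2 has 4 and Igfbp2 has 2, and the 250 bases before each start site were searched on both strands for the GR hexamer AGAACA, whose reverse complement is TGTTCT. The hexamer occurred in 2 of the 14 windows, against 16.1% of 32851 mouse windows of the same length. These are shown first, with the hexamer in capitals, followed by those of Igfbp5, which had the peak closest to a start site, and Igfbp3, which had the most peaks. The Igf2 window lies at chr7:142666817-142667066 on the minus strand and the Igfbp2 window at chr1:72824230-72824479 on the plus strand. The Igfbp5 window lies at chr1:72874866-72875115 and the Igfbp3 window at chr11:7213924-7214173, both on the minus strand.
Igf2: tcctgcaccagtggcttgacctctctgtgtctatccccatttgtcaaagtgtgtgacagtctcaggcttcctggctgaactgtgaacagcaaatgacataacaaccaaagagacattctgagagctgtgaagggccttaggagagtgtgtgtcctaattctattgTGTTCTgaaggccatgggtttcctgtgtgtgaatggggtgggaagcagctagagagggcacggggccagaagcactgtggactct
Igfbp2: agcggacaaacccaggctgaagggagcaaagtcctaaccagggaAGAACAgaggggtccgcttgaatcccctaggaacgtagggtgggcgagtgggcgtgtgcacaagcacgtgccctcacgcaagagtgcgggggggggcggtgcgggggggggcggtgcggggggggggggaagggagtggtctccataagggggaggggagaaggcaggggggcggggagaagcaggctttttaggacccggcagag
Igfbp5: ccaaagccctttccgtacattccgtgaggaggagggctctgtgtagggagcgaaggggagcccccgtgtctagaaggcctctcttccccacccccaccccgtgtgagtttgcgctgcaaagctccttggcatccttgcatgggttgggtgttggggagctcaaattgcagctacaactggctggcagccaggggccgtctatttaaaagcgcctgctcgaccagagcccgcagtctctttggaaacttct
Igfbp3: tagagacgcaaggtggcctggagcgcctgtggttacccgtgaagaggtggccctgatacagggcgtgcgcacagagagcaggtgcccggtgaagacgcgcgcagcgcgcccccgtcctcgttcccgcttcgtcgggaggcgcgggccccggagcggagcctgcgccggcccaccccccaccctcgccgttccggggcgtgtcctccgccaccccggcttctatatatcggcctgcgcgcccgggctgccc

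In this Igf2 window, which the sources used here do not tie to the start site that the peak list measures from, the hexamer began 85 bases before the start, and in Igfbp2 it began 206 bases before. An inverted pair of hexamers with 3 bases between was in none of the 14 windows and in 0.00913% of all windows. Pairs of the looser core GNACA, arranged in the same way, were in none of the members' windows and in 0.387% of all, and the single core was in 10 of 14 against 81.3%. No member had a GR peak within a promoter by the list's own annotation, so these letters describe the windows and not the bound sites.

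Peaks were found for both ligands, for 1 of the 2 receptors and for 5 of the 6 binding proteins. The binding proteins held 11 of the 14 peaks and Igfbp3 alone held 6. The 22.5% of protein-coding genes with a peak was counted over 21900 genes. The median score of the 14 peaks was 33, equal to the median of the whole list. Scores are whole numbers of a scale that the list does not explain, from 20 to 43344 over all peaks. They are the authors' own values and were used to rank peaks within that list. Of the members' scores, 6 stood above 33, 5 were at 33 and 3 were lower, so the family's peaks sat in the middle of the list in strength.

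**Figure D1:**
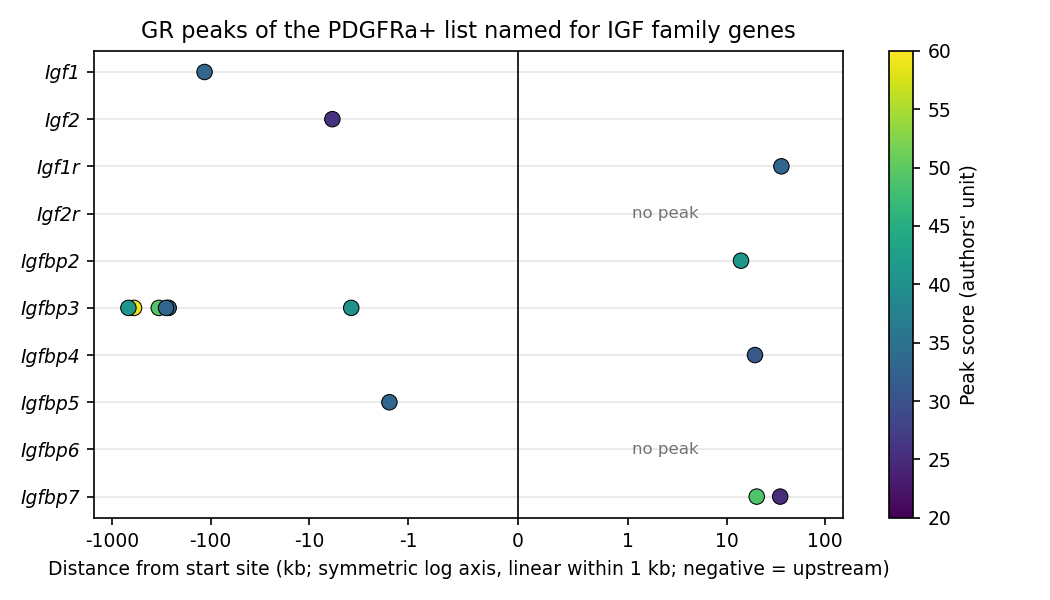
Each point is a GR peak of the PDGFRa+ library named for a gene of the family, placed by its distance in kb from the start site on a symmetric log axis (upstream to the left), with colour for the score in the authors' unit. The 6 Igfbp3 peaks all lie upstream, 5 of them at 266 kb or more, while the Igfbp5 peak at -1550 bp is the closest to a start site and Igf2r and Igfbp6 have none.

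Among the ligands, Igf1, the main circulating and local growth factor of the family, had 1 peak with a score of 33. It lay in intergenic sequence 115196 bp upstream of the start site (chromosome 10, 87205742 to 87205887 as deposited). Peaks as strong or stronger made up 75.6% of the list, including the 25.7% that shared the score of 33, the list's median. The Igf2 peak, for the ligand that is imprinted and active mainly before birth, had a score of 26, which 94.0% of the list reached or passed. It lay 5856 bp upstream of the start site used by the list (chromosome 7, 149858505 to 149858650 as deposited), on the side that faces the insulin gene Ins2. The Igf2 peak was thus closer to its gene than the Igf1 peak, and the weaker of the pair in score.

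Igf1r, the signalling receptor, had 1 peak with a score of 33 in intron 1 of 20, 35936 bp from its start site (chromosome 7, 75133007 to 75133152 as deposited). Within 100 kb of the Igf1r start it was the single peak of any name. Igf2r was named by no peak. No peak of the list was annotated inside an Igf2r transcript under another gene's name. In gene order on GRCm38, the first genes with a peak were the fourth on the lower side, Plg, and the seventh on the upper side, Acat2.

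Igfbp3, the most abundant binding protein of serum, had 6 peaks, all upstream and all intergenic. A count of 6 or more was reached by 177 of the 6081 genes that the list names (2.91%) and by 0.575% of all protein-coding genes, while 65.6% of the named genes had 1 peak. The peak closest to Igfbp3 lay 3775 bp upstream with a score of 40, in an ORR1B2 element of the MaLR family of LTR repeats (chromosome 11, 7117629 to 7117774 as deposited). The other 5 formed a far upstream series over 414 kb. From the gene outwards they stood at 265929 bp with a score of 33, at 282588 bp with 33, at 334668 bp with 49, at 596570 bp with 59 and at 679842 bp with 41. The score of 59 was the highest of the family (chromosome 11, 7710404 to 7710588 as deposited), and 3.56% of the list scored as high. Its width of 185 bp was above the 146 bp that 12 of the 14 peaks and 71.9% of the list had.

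All 5 far peaks lay in the stretch between Igfbp3 and Tns3, the next protein-coding gene on that side in the GRCm38 gene order. That stretch is 1216 kb long on GRCm38. Peak counts per gene were not adjusted for the length of such stretches, so the count of Igfbp3 is not read as a trait of the gene. The list names a peak for the nearest start site, so the naming says that the Igfbp3 start was closest and not that Igfbp3 is the target. Over 500 kb from the start site lay 7.37% of all peaks of the list and 2 of the 14. Beyond the last Igfbp3 peak the next peak stood 478 kb away and was named for Tns3, with a score of 33. On the other side of Igfbp3 lies Igfbp1, a binding protein gene that glucocorticoids induce in liver. Igfbp1, which was not among the 10 genes, had a peak with a score of 49 that lay 3122 bp upstream of its start site and 22.9 kb from the nearest Igfbp3 peak.

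**Figure D2:**
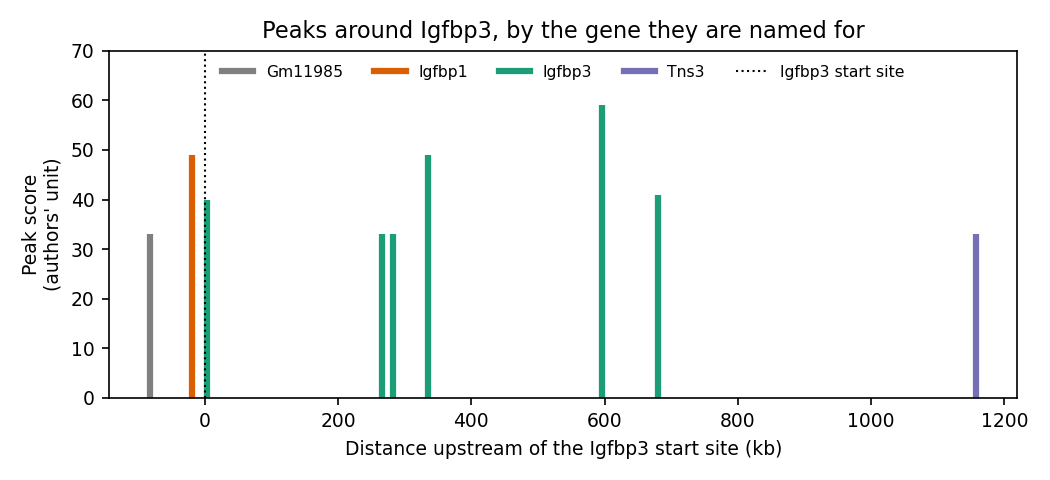
Bars mark the peaks around Igfbp3 by distance in kb upstream of its start site (dotted line) with the score in the authors' unit as height, coloured by the gene each is named for. The 5 distal Igfbp3 peaks stand between 266 and 680 kb, the highest with a score of 59, and Igfbp1 has a peak of 49 on the other side of the start site.

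Igfbp2 and Igfbp5 are neighbours on chromosome 1 and each had 1 peak. The Igfbp2 peak had a score of 41 and lay in intron 1 of 3, 14012 bp from the start site (72885901 to 72886046 as deposited). The Igfbp5 peak had a score of 33 and lay 1550 bp upstream (72922917 to 72923062 as deposited), the shortest distance in the family. A gap of 36.9 kb separated these peaks, and the start sites that they imply lay 49.5 kb apart. No other peak lay within 100 kb of either start site.

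Igfbp4, a binding protein that inhibits IGF action, had an intergenic peak with a score of 31 at 19413 bp past its start site (chromosome 11, 98921899 to 98922044 as deposited), on the side where Tns4 is the next protein-coding gene. Its surroundings held more peaks than those of the other 7 members with a peak: 5 lay within 100 kb of the Igfbp4 start, of which 4 were named for Gjd3, Top2a, Tns4 and Ccr7. The Top2a peak, in exon 2 of 36, had a score of 57 and lay 18311 bp upstream of the Igfbp4 start, so the strongest peak near Igfbp4 was one named for its neighbour. Over the 8 members with a peak, 10 of 18 entries for peaks within 100 kb were named for another gene than the member. Igfbp4 gave 4 of these 10, and a peak near both Igfbp2 and Igfbp5 enters for each. The same count was not made over all genes or adjusted for gene density, so it is not read as a trait of the family.

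Igfbp7, which binds IGFs with low affinity, had 2 peaks in intron 1 of 4. The stronger scored 49 and stood at 20227 bp past the start site, in an ORR1E element of the MaLR family (chromosome 5, 77816771 to 77816916 as deposited). The weaker had a score of 25, which 98.2% of the list reached or passed, and lay 34948 bp from the start site (77802037 to 77802207). The next gene upstream of Igfbp7, the latrophilin gene Adgrl3, was named by 12 peaks with scores of up to 82. Igfbp6, which prefers Igf2 over Igf1, was named by no peak, no listed peak was annotated inside its transcript, and its neighbours Spryd3 and Soat2 had none.

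**Figure D3:**
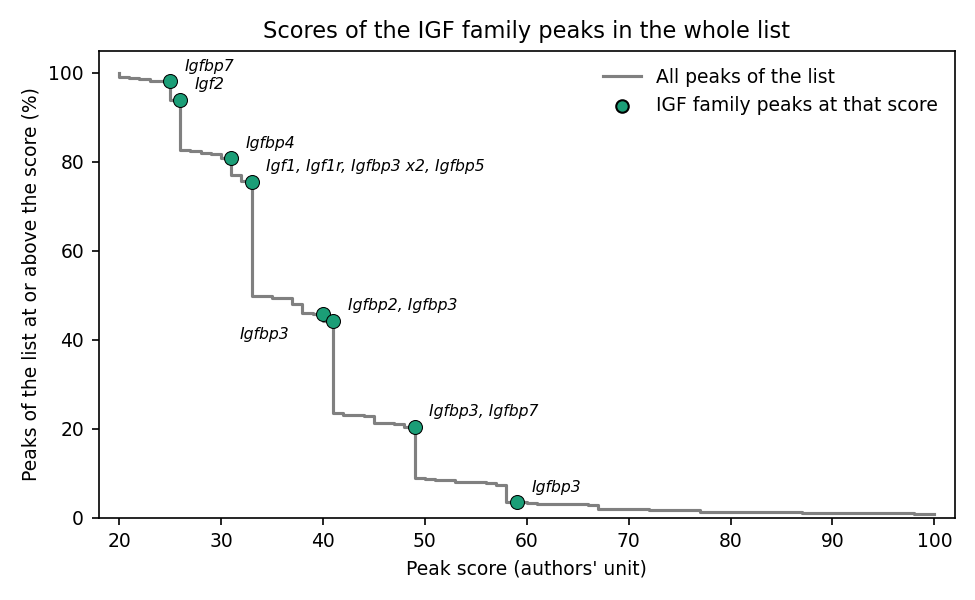
The grey line gives the percentage of all 10402 peaks of the PDGFRa+ list at or above each score in the authors' unit, shown for scores of 20 to 100, and the points mark the scores of the family's peaks with their genes (x2 for a pair of peaks). The family ranges from 25 in Igfbp7, at 98.2% of the list, to 59 in Igfbp3, at 3.56%, with 5 peaks at the list's median of 33.

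By position, 10 of the 14 peaks were intergenic and 4 intronic, against 56.3% and 37.3% of the list, and none was at a promoter, against 2.50%. Upstream of the start site lay 9 of the 14, against 44.0% of the list, and Igfbp3 gave 6 of these 9. Repeat elements held 2 of the 14, both MaLR, against 38.1% of the list in any repeat and 4.65% in MaLR. The median absolute distance was 35442 bp, against 47254.5 bp in the whole list. This order turned without peaks in repeats, at 75566 bp against 41471 bp, and the members' median was 19820 bp without Igfbp3, so no difference in distance is read from it. Taking the nearest peak of each gene, it was 16712.5 bp over the 8 members and 21406 bp over all named genes. These shares describe 14 peaks of 1 library, of which those of Igfbp3 share a locus.

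Counted by distance, 7 of the 10 members were named by a peak within 100 kb of the start site, against 19.8% of protein-coding genes. Igf1 was the member whose named peak lay farther out. A peak named for Tyms-ps, with a score of 26, lay 80304 bp past the Igf1 start and is not in this count. Within 20 kb, a limit set after the values were seen, 5 members had a peak, namely Igf2, Igfbp2, Igfbp3, Igfbp4 and Igfbp5, against 11.2% of genes. With a score of 50 or more, Igfbp3 was left, against 2.59% of genes. Outside repeats all 8 kept a peak, against 16.3%. Because the family was chosen with results of these data known, the counts are descriptions and were not tested.

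None of the 10 members was in the CD137+ table (0 of 10), nor was any of 26 partner genes examined below, and 0.114% of protein-coding genes were. That table is restricted to genes with such an interval, and its 23 intervals are too few for an absence to show that a gene is unbound. On mm10, the build in the table's column names, the nearest CD137+ interval was at least 1.140 Mb from every member apart from Igfbp6, and Igf1 had none on its chromosome. Igfbp6 was closest: an interval with a value of 34, in the authors' unit, lay on chromosome 15 at 102102656, 332 bp upstream of Tenc1 and 41530 bp from Igfbp6. The same interval was also listed for Eif4b, downstream of that gene and 28883 bp from its start. Values of that table ran from 28 to 74 with a median of 41.75 over genes.

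Partner genes that process IGFs or carry their signal were examined as a list of 26, of which 12 were named by a PDGFRa+ peak and 14 were not, beside the 22.5% of all protein-coding genes. Their 23 peaks had a median score of 38, against 33 over all PDGFRa+ peaks. Their median absolute distance was 78234 bp, against 47254.5 bp, and 13 lay in a repeat element, against 38.1%. The proteases that cut binding proteins and the inhibitors of these proteases were the part of the list with most peaks, mainly from Pappa2 and Pappa. Counts were not adjusted for gene length or for the distance to neighbouring genes. Pappa2, a protease that cleaves Igfbp3 and Igfbp5, had 6 peaks, all in introns, with scores from 25 to 49. They lay 2328 to 222668 bp from the start site, and 0.575% of protein-coding genes had 6 or more peaks. Pappa, the related protease that cleaves Igfbp4, had 4 intergenic upstream peaks, and the strongest had a score of 77 at 305102 bp in an LTR repeat, the highest score of the partner genes. Stc2, whose product inhibits these proteases, had peaks with scores of 49 and 38, and Stc1 a peak with a score of 25. Htra1, another protease, had none.

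Downstream of the receptors, the adaptor gene Grb10 had peaks with scores of 49 and 33, the closer 91019 bp upstream, and Grb14 a peak with a score of 26 at 440088 bp. The insulin receptor gene Insr had a peak with a score of 38 at 131101 bp. Of the kinases, Pik3r1 had a peak with a score of 41 at 301130 bp upstream and Pdpk1 an intron peak with 26 at 12924 bp. The transcription factor gene Foxo3 had 2 peaks with a score of 41 each. The closer lay in intron 2 of 3 at 15486 bp. The other lay 47216 bp upstream of the Foxo3 start, in intron 9 of 11 of a transcript whose gene the annotation does not name. That transcript was not assigned to Foxo3 here. Foxo1 had a peak with 26. The adaptors Irs1, Irs2, Irs4 and Shc1, the kinases Pik3ca, Akt1 and Akt2, the relative Insrr, the binding protein relatives Igfals and Igfbpl1, and all 3 genes of Igf2 mRNA-binding proteins, Igf2bp1, Igf2bp2 and Igf2bp3, were named by no peak. Within 20 kb of a start site, 4 of the 26 partners had a peak (Igfbp1, Pappa2, Pdpk1 and Foxo3), near the 11.2% of all protein-coding genes.

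**Figure D4:**
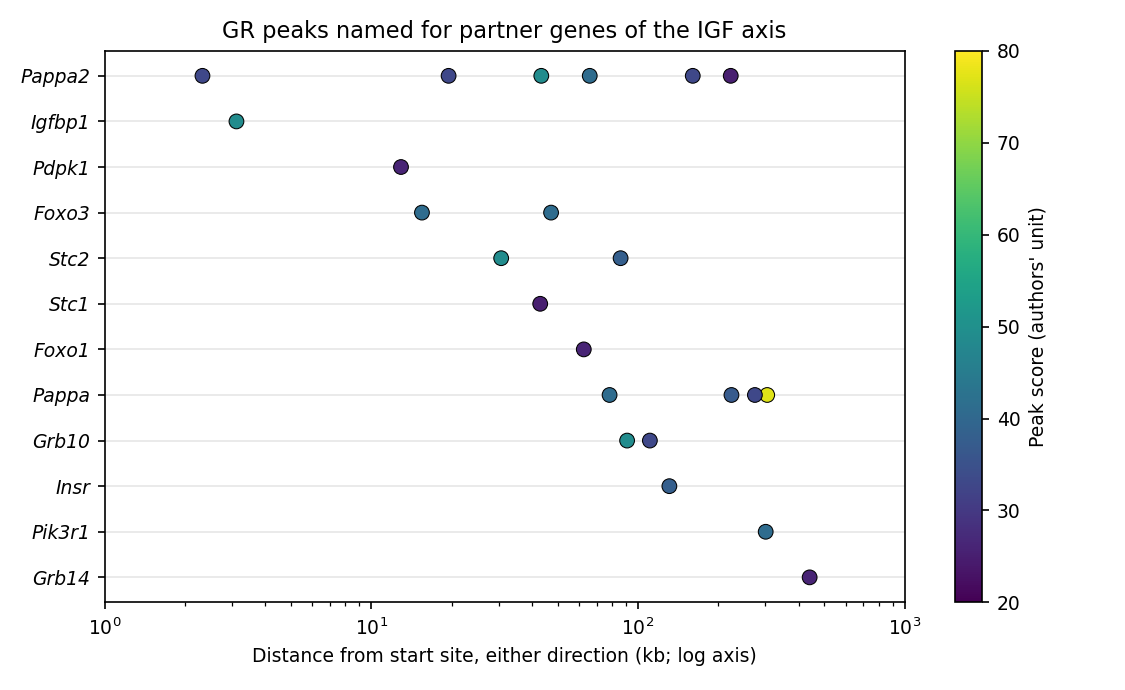
Points are the 23 PDGFRa+ peaks named for 12 partner genes, placed by absolute distance from the start site in kb on a log axis and coloured by score in the authors' unit. Pappa2 has 6 peaks from 2328 bp outwards, and the highest score, 77, belongs to a Pappa peak at 305102 bp.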

How the data were processed

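GR peaks of 1 immunoprecipitate per cell type were used; input libraries were not used here. Per the submitters' processing notes the tools were FastQC, Bowtie2, MACS2, SAMtools and bedtools 2.17.0 and the build mm10, without their roles or settings. Per the labels' protocols, lysis followed a text written for embryos rather than fat cells, so these steps are not known. The deposited PDGFRa+ list gives, per the file headers, a peak score, positions, an annotation and a distance to the nearest start site; the scale of the deposited score is not stated. The deposited CD137+ table gives a mean signal per gene in a unit that no header explains. Positions and distances are other values that the authors deposited in bases.

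Positions of the PDGFRa+ list are not on the labelled build: 62 peaks lay beyond the last GRCm38 gene of their chromosome, and start sites implied for the 8 members lay 0.0466 to 7.19 Mb from those of the RefSeq gene table (GRCm38.p6). They are printed as deposited and none was converted; that table served for names, identifiers and gene order, and for mm10 positions beside the CD137+ table. Of 6081 identifiers 6070 matched it. In 13 names the list holds a date in place of a gene, so shares of genes were counted by identifier; members gave the same peaks by name and by identifier. All 10 members and all 26 partner genes are named, with or without a peak.

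No test was possible with 1 library per group, no depth was given, and no interval that needs it was computed. Members, the partner list and settings were chosen with earlier results of these data known. Counting and the motif search were tested on simulated data. Scripts used Python 3.11.15 with pandas 2.3.3.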

Additional observations from a re-analysis of the deposited data

How the results depend on the processing

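Of the 10 members, 8 were named by a peak, 7 within 100 kb and 8 outside repeats. The shares of all protein-coding genes were 22.5%, 19.8% and 16.3%, in the same order. A minimum score of 50 left 1 member gene, 1 member peak and 1 partner gene (Pappa), so nearly all the counts rest on peaks under that score. Of all protein-coding genes, 2.59% had a peak of that score. A limit of 20 kb left 5 members and 4 partners, against 11.2% of protein-coding genes. The 14 member peaks became 8 within 100 kb and 8 without those of Igfbp3, and 12 outside repeats. Of the 26 partners, 9 had a peak within 100 kb, against 19.8% of protein-coding genes. The median score was 33 in every setting tried (within 100 kb, outside repeats, without Igfbp3). The median distance ran from 16712.5 bp with the nearest peak of each gene to 75566 bp outside repeats, and was 19820 bp without Igfbp3. The 95% order-statistic interval of the median over all 14 peaks was 5856 to 334668 bp. It treats peaks as independent, though those of Igfbp3 share a locus, and covers no library error. These medians come from parts of the same peaks, so their lying inside it is no check. The 20 kb limit and the settings on Igfbp3 and on nearest peaks were chosen after seeing the data. The fewer peaks admitted by each limit account for the lower counts by construction. No paired analysis was possible because each group has 1 library.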

Other observations

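Tensin genes, which encode adaptors between integrins and actin, lie on the chromosomes of several binding protein genes of the family, at distances from 13.0 to 1216 kb; the pairing was noticed after the values were seen. In the GRCm38 gene order Tns4 follows Igfbp4 with 13.0 kb between the genes, and Tns3 is next to Igfbp3 at 1216 kb. Tns2 is separated from Igfbp6 by 27.8 kb and 1 protein-coding gene, and Tns1 from Igfbp5 by 1035 kb and 1 gene. In the PDGFRa+ list Tns1 had a peak with a score of 77, Tns3 had 4 with a highest score of 67, and Tns4 had 1 with a score of 41, while Tns2 had none, beside 22.5% of all protein-coding genes with a peak. The CD137+ table held Tns1, with a value of 42, and Tenc1, the older name of Tns2, with a value of 34. The interval of Tenc1 lay 41530 bp from Igfbp6. The Tenc1 interval was also listed for Eif4b, so it is not particular to the tensin gene. Whether any of these sites acts on a binding protein gene was not tested.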
